A study of Mus musculus with 3 samples.

Results

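The nuclear respiratory chain genes are the genes of the cell nucleus that encode subunits of complexes I, III, IV and V of the mitochondrial inner membrane and some of the factors that assemble them. They were taken by symbol, as every listed gene that begins with Ndufa, Ndufb, Ndufc, Ndufs, Ndufv, Uqcr, Cox4i, Cox5, Cox6, Cox7, Cox8 or Atp5, without pseudogene symbols. This gave 89 of 32285 listed genes, of which 36 encode complex I subunits, 8 complex III, 19 complex IV and 17 complex V, while 9 are assembly or supercomplex factors (Ndufaf1 to Ndufaf8 and Cox7a2l). The 19 include Ndufa4, named as a complex I subunit and now placed in complex IV, and its paralogue Ndufa4l2. All 89 are annotated as protein coding. The testis- and muscle-type genes Cox7b2, Cox8b and Cox8c were at 0 UMIs in every barcode of the 3 libraries.

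C57BL/6 mice carried subcutaneous tumours of B16F10, a mouse melanoma line, and all of them received an intravenous transfer of Pmel-1 cytotoxic T lymphocytes on day 9 after inoculation. Pmel-1 cells carry a receptor for the melanoma antigen gp100 and had been activated in culture. CD45+ cells, the haematopoietic cells of the tumour, were taken on days 3, 7 and 14 after transfer, and equal numbers from 3 mice were pooled into 1 library per day. The labels name both a cell sorter and magnetic beads for that step, their cell type field holds a strain, and mice without transfer were not analysed here. Each day is therefore 1 library of 1 pool, and day, library and age of the tumour cannot be told apart.

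Complexes I, III and IV pass electrons from NADH to oxygen and pump protons across the inner membrane, and complex V, the ATP synthase, uses the proton gradient to make ATP. Complexes I, III, IV and V each join subunits encoded in the nucleus with a few encoded in mitochondrial DNA, so both genomes have to supply parts. Dividing lymphocytes are known to increase mitochondrial mass, whereas macrophages with strong arginase expression in tumours are often described together with glycolysis. Several complex IV subunits exist as a common form and a form restricted to certain tissues, for example muscle.

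Promoters of these genes are known for binding sites of the factors NRF1, GABP (an ETS family factor) and YY1. RefSeq promoter windows of build GRCm38.p6, each of 300 bases from 250 before to 50 after a start, were found for 72 of the 89 genes (77 windows). The NRF1 letters, GCGCA and GCGC with any base N between them, were searched on both strands and stood in 18 of the 77 windows (23.4%), against 4.60% of all 32851 windows and 6.38% of those of protein-coding genes. The ETS letters CCGGAAG, on either strand, were in 22.1% of the members' windows against 8.86% of all, and the YY1 letters AAGATGGC in 10 of 77 (13%) against 2.75%. The CCAAT box, a general promoter element, stood in 42.9% against 37.4%. At least 1 of the first 3 motifs was present in 39 of the 77 windows (50.6%), against 14.7% of all windows. By complex, the NRF1 letters were in 6 of 17 complex V windows (35.3%) and in 1 of 13 complex IV windows (7.69%), that of Cox6a1. The YY1 letters were in 7 of 34 complex I windows (20.6%), in 0 of 5 of complex III and in 0 of 13 of complex IV. Differences between complexes in these small counts were not tested.

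Promoters of 4 members, 1 for each complex, show what these letters look like in place, since the values below treat the members as a module. Each run is the 250 bases upstream of the start on the minus strand, 5′ to 3′, with the NRF1 and ETS letters in capitals. The Ndufb4 promoter, chr16:37654369-37654618, held the NRF1 letters 3 times, 191, 79 and 22 bases before the start. In the Uqcr11 promoter, chr10:80406822-80407071, the ETS letters stood 66 bases before the start. The Cox6a1 promoter, chr5:115348959-115349208, held the NRF1 letters 162 and 117 bases before the start and the ETS letters, read on the other strand as CTTCCGG, at 16 bases. The Atp5k promoter, chr5:108434400-108434649, held the NRF1 letters 50 bases before the start. A match is a run of letters and not a measured binding site.
Ndufb4: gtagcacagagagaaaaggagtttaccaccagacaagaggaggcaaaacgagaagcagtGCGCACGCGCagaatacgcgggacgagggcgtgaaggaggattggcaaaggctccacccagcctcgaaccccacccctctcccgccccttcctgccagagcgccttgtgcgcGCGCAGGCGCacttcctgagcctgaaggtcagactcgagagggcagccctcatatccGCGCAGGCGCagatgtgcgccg
Uqcr11: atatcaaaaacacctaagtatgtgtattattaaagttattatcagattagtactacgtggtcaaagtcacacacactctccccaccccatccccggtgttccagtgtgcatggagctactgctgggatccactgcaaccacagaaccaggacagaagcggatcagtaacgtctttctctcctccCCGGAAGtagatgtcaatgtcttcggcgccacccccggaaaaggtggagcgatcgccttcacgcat
Cox6a1: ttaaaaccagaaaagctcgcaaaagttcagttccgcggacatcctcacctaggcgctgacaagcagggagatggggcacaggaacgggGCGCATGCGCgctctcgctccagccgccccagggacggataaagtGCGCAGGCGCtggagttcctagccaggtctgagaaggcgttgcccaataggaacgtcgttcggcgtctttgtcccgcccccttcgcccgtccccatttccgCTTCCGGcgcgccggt
Atp5k: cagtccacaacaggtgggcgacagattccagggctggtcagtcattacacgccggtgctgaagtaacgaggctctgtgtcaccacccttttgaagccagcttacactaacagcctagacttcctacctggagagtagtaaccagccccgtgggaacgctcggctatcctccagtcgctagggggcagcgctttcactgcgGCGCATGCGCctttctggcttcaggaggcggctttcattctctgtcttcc

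Cells were assigned to 7 classes by UMIs of a few genes, a UMI being 1 counted RNA molecule, and levels are in CPM, the UMIs of a gene scaled to 1000000 UMIs of the class. Only barcodes with at least 1500 UMIs were used. CD8 T cells had at least 2 UMIs of Cd8a and Cd8b1. Of these, cycling cells had at least 3 UMIs of the division genes Mki67 and Top2a and non-cycling cells had 0. NK cells had at least 2 UMIs of Ncr1 and Klrb1c, plasmacytoid dendritic cells (pDC) at least 2 of Siglech, type 2 conventional dendritic cells (cDC2) at least 2 of Cd209a, monocytes at least 3 of Ly6c2 and macrophages at least 5 of Arg1. At days 3, 7 and 14 the classes held 165, 143 and 142 cycling CD8 T cells, 225, 263 and 265 non-cycling CD8 T cells, 251, 477 and 214 NK cells and 15, 6 and 17 pDC. They also held 85, 89 and 88 cDC2, 1014, 641 and 524 monocytes, and 117, 112 and 346 macrophages. The 3 libraries held 3656, 3038 and 3549 barcodes and between 29547433 and 35742070 UMIs.

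On each day the marker lists of CD8 T cells, pDC, cDC2, monocytes and macrophages had their highest sum in the class of that name. Lists of CD8 T cells, NK cells, pDC, cDC2 and macrophages hold genes of the gates. The gates themselves therefore favour this order, and it is no independent check of the classes. The NK list, which holds Tyrobp and Fcer1g, shared with myeloid cells, summed to 6450, 6631 and 5394 CPM in NK cells and 5969, 5960 and 5614 in monocytes. On day 14 monocytes and pDC (5556) were above NK cells on this list. Marker genes of pDC summed to 1665, 528 and 1035 CPM in the non-cycling CD8 T cells, of which 20, 4 and 15 also passed the Siglech gate, and to 762, 337 and 480 with the pDC gate read first. In that order of gates the same list summed to 1908, 1672 and 1400 in NK cells. Haemoglobin genes stood at 2455 CPM in the day 3 macrophages, and neutrophil genes at 740 in the day 14 monocytes. Barcode sequences that 2 libraries share made up 37.0%, 50.3% and 22.5% of cycling CD8 T cells at the 3 days and at most 10.1% of any other class on any day.

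Cycling CD8 T cells carried the highest summed level of these genes on each of the 3 days, at 23132, 24279 and 24337 CPM on days 3, 7 and 14 (mean 23916 ± 680, SD over 3 libraries). The order of the means continued with pDC at 20888 ± 203, non-cycling CD8 T cells at 19632 ± 561, NK cells at 19244 ± 868 and cDC2 at 19243 ± 977. Without Cox6a2, described below, pDC stood at 19730 ± 454 and non-cycling CD8 T cells at 19570 ± 603, which the spread does not separate. Monocytes followed at 18109 ± 1168 and macrophages were lowest at 15444 ± 1007. The cycling cells lay above every value of the other classes, and the macrophages lay below all of them (15602, 14367 and 16361). Non-cycling CD8 T cells, NK cells and cDC2 could not be separated by their spread, and the monocyte values of 16914, 18166 and 19247 overlapped those of cDC2 and NK cells. The exact Poisson interval of these sums was narrow, for example 23006 to 23258 for the cycling cells of day 3, and covers counting error only.

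**Figure D1:**
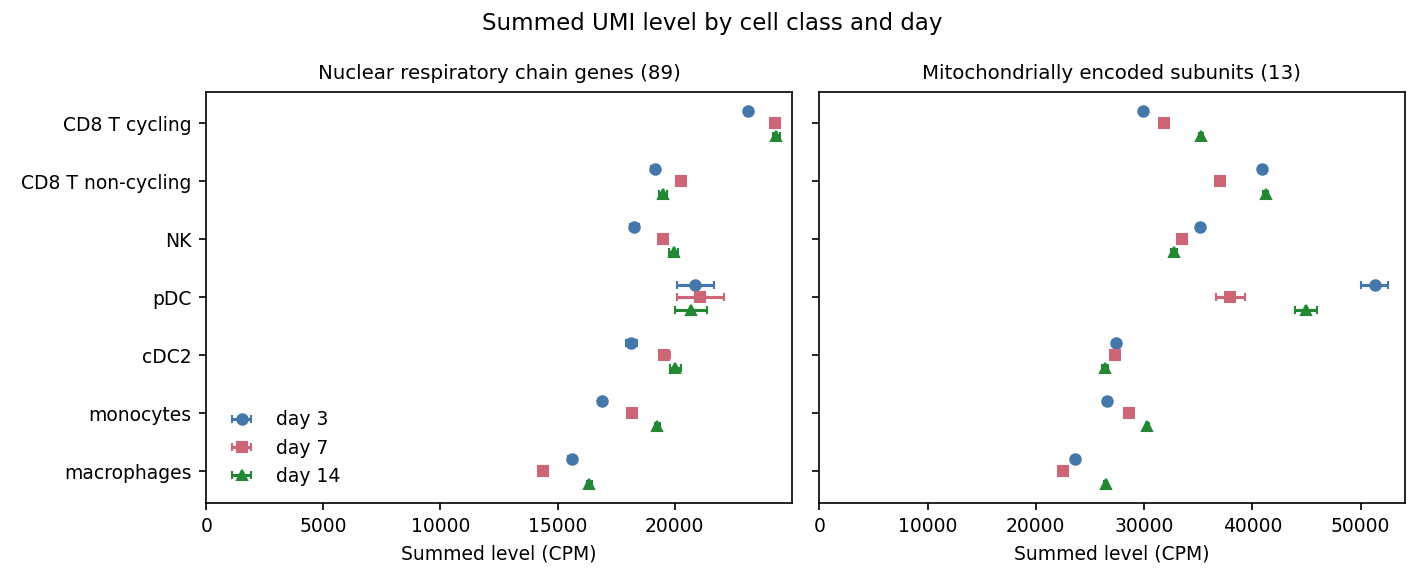
Summed level by class (rows) and day (symbols) in CPM, for the 89 nuclear genes on the left and 13 mitochondrially encoded subunits on the right, with exact Poisson 95% intervals. On the left the cycling CD8 T cells sit between 23132 and 24337 CPM and the macrophages between 14367 and 16361; on the right the non-cycling CD8 T cells and pDC lie highest.

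The 13 subunits encoded in mitochondrial DNA had another order. Their sum was 29876, 31812 and 35250 CPM in cycling CD8 T cells and 40853, 37019 and 41228 in non-cycling CD8 T cells, with no overlap. pDC reached 51304, 37949 and 44940, whereas macrophages stood at 23599, 22539 and 26456. Nuclear per mitochondrial UMIs were thus 0.774, 0.763 and 0.690 in cycling and 0.469, 0.547 and 0.473 in non-cycling CD8 T cells. In monocytes the ratio was 0.636, 0.635 and 0.636 on the 3 days.

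The complexes shared the subunit UMIs in similar proportions in all 7 classes. Complex I took between 28.6% and 30.0%, complex III between 9.35% and 10.4%, complex IV between 26.4% and 31.0% and complex V between 30.8% and 34.8%. Cox4i1, the common form of complex IV subunit 4, had a mean of 791 CPM in cycling CD8 T cells and 1056 in pDC. Atp5b, the catalytic beta subunit of the ATP synthase, reached 999 in cycling CD8 T cells, 648 in non-cycling CD8 T cells and 486 in macrophages. These are counts of 3′ ends, not divided by length. With each cell thinned to 1500 UMIs, the median cycling CD8 T cell showed 25, 25 and 26 of the 89 genes on days 3, 7 and 14 and the median macrophage 17, 16 and 18. Without thinning the medians were 77, 76 and 77 and 60, 51 and 61, at median totals of 31425, 30360 and 31275 UMIs per cycling cell and 14063, 11002 and 13050.5 per macrophage.

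In cycling against non-cycling CD8 T cells, many of the nuclear respiratory chain genes were higher, in complexes I, III, IV and V, while 4 went the other way. By edgeR's quasi-likelihood test on sums per class and library, with Benjamini-Hochberg adjustment over 11276 genes at 0.05, 32 of 85 tested members were higher (37.6%), where 15.0% of all genes tested were. Another 4 were lower (4.71%), where 16.6% of all genes were. The members' median log2 fold change was 0.28 against -0.09 over all genes. 68 members had the higher value in the cycling cells on all 3 days, a count that was not made over all genes. Unless another fit is named, p-values here and below come from the fit of all 7 classes over 3 libraries, which are 3 days. Their estimate of spread is shared by these classes and does not rest on the compared classes alone.

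Depth per cell moved with this result. The gate asks for at least 3 UMIs of Mki67 and Top2a in one class and 0 in the other, and the median totals were 30360 to 31425 UMIs per cycling and 8289 to 9530 per non-cycling cell. In an alternative added after seeing the data, only cells of 15000 to 30000 UMIs were kept, 58, 55 and 42 cycling against 44, 49 and 41 non-cycling. Then 1 of 83 members was higher and 0 were lower, with 4 and 1 at an unadjusted p under 0.05 in edgeR, a median log2 of 0.01, and 467 higher and 440 lower of 9051 genes. The summed level in these cells was 21243, 23353 and 23839 CPM in cycling and 20340, 21308 and 21700 in non-cycling cells. Cycling cells remained higher on each day, by less than without the match. In a fit without the day 14 library, 15 members were higher, and the share over all genes is not given here.

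**Figure D2:**
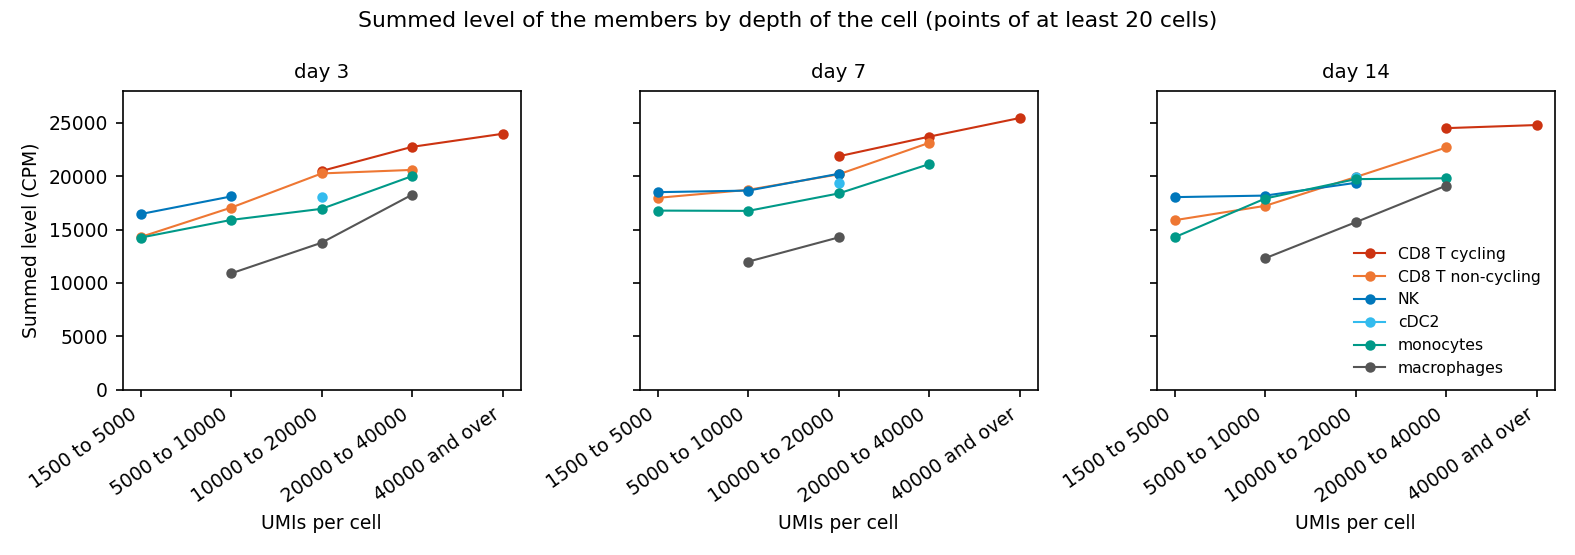
Summed level of the 89 genes (CPM, vertical) against the range of UMIs per cell (horizontal), 1 panel per day, with a line per class and points for ranges holding at least 20 cells. In monocytes of day 3 the level goes from 14243 in the shallowest to 19997 in the deepest range; at 20000 to 40000 UMIs cycling CD8 T cells had 22731, 23684 and 24480 CPM and non-cycling ones 20574, 23106 and 22670.

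Of the 36 complex I genes, 14 were higher in cycling cells and 1 was lower. Ndufab1, the mitochondrial acyl carrier protein that is also a complex I subunit, was at 265, 203 and 229 CPM in cycling cells on days 3, 7 and 14 and at 153, 104 and 117 in non-cycling cells. The 3 cycling values lay above the 3 others, with a log2 fold change of 0.84 ± 0.11 (SE; edgeR adjusted p = 6.87e-06). Ndufv1, which carries the NADH binding site, was at 98.1, 102 and 104 against 55.3, 63.2 and 55.2 (log2 0.74 ± 0.12, edgeR adjusted p = 0.000116). It was the 1 member that stayed higher among cells of 15000 to 30000 UMIs, at a log2 of 0.60 (adjusted p = 0.0297). Ndufa5, an accessory subunit of the peripheral arm, was at 136, 132 and 131 against 80.1, 78.7 and 65.9 (log2 0.76 ± 0.16). The other 11 higher genes of the complex ranged from a log2 of 0.31 for Ndufb2 to 0.70 for Ndufa12, and each had all 3 cycling values above all 3 others. Ndufa6, another accessory subunit, went the other way, with 149, 197 and 191 CPM in cycling and 202, 269 and 290 in non-cycling cells (log2 -0.57 ± 0.12, edgeR adjusted p = 0.00109).

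In complex III, 4 of 8 genes were higher and 1 was lower. Uqcr10, a small subunit, was at 321, 386 and 414 CPM in cycling and 231, 225 and 224 in non-cycling cells, without overlap (log2 0.64 ± 0.11, edgeR adjusted p = 0.000108). Uqcr11, whose promoter is printed above, was at 218, 233 and 252 against 150, 161 and 151. The core protein gene Uqcrc1 was higher by a log2 of 0.45 ± 0.11, with an adjusted p of 0.0762 without day 14. Uqcrh, the acidic hinge protein that sits next to cytochrome c1, was lower in cycling cells, at 527, 623 and 639 against 651, 803 and 761 (log2 -0.38 ± 0.10, edgeR adjusted p = 0.00862). That call was lost without day 7 (adjusted p = 0.119), without day 14 (0.094), without barcodes that libraries share (0.114) and without the library term (0.106).

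Complex IV had 4 genes higher and 1 lower. Cox5a, which with Cox5b forms the matrix-facing part, was at 809, 716 and 693 CPM in cycling and 566, 490 and 459 in non-cycling cells (log2 0.48 ± 0.10, edgeR adjusted p = 0.000977). Ndufa4 was at 600, 540 and 635 against 450, 357 and 442, and Cox7a2, the common form of subunit 7a, at 465, 518 and 492 against 351, 356 and 362. In each of these genes every cycling value lay above every non-cycling one, and without day 14 the adjusted p was 0.0565 for Ndufa4 and 0.064 for Cox7a2. The lower gene was the muscle-type Cox6a2, whose UMIs in the non-cycling class are tied to the pDC gate and are described with the isoforms.

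In complex V, 8 of 17 genes were higher and 0 were lower, and all 8 separated the classes on the 3 days. Atp5b was at 1065, 920 and 1012 CPM in cycling and 714, 567 and 663 in non-cycling cells (log2 0.56 ± 0.10, edgeR adjusted p = 0.00026). Atp5g3, 1 of the genes for the membrane ring, was at 374, 363 and 364 against 261, 233 and 216 (log2 0.57 ± 0.12). Atp5o, a part of the stalk that holds the head still, was higher by 0.54 ± 0.12 in log2.

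Among the 9 assembly factors, 2 were higher and 1 was lower. Ndufaf2, which assists a late step of complex I assembly, was at 38.4, 32.4 and 32.3 CPM in cycling and 15.4, 16.2 and 14.0 in non-cycling cells, a log2 of 1.11 ± 0.22 (edgeR adjusted p = 0.000483). Ndufaf6 was at 20.5, 17.5 and 22.5 against 14, 6.3 and 11 (log2 0.90 ± 0.24), and its adjusted p was 0.0796 without day 14, 0.0905 without barcodes that libraries share, 0.192 with barcodes that pass exactly 1 gate and 0.986 among cells of 15000 to 30000 UMIs. Cox7a2l, known for a role in joining complexes III and IV into supercomplexes, was lower in cycling cells, at 220, 306 and 324 against 349, 522 and 477, with a log2 of -0.74 ± 0.11 (edgeR adjusted p = 4.35e-05). Among cells of 15000 to 30000 UMIs its log2 was -0.22 (adjusted p = 0.446).

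**Figure D3:**
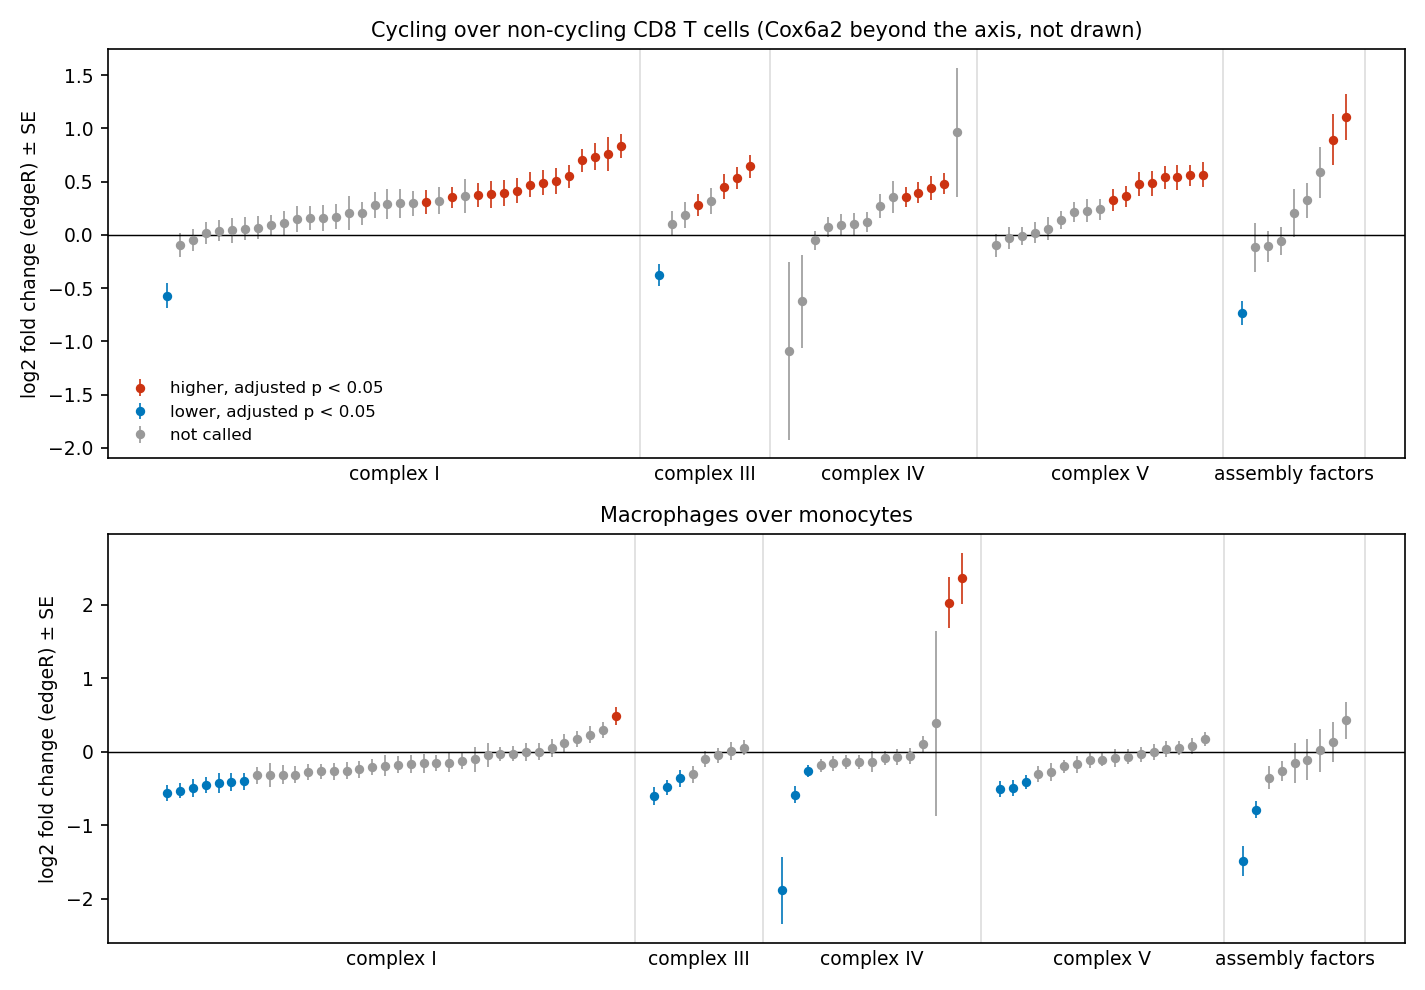
Log2 fold change of each tested member by edgeR (vertical), with a standard error derived from edgeR's F statistic. Members are ordered within complexes I, III, IV, V and the assembly factors, for cycling over non-cycling CD8 T cells (top) and macrophages over monocytes (bottom). Red points are higher and blue points lower at an adjusted p under 0.05: 32 and 4 at the top, 3 and 18 at the bottom.

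Other mitochondrial and metabolic lists were counted in the same fit. Of complex II genes and electron carriers, 7 of 9 were higher and 0 lower (median log2 0.43), led by Etfb, Sdhd and Cycs at 0.80, 0.75 and 0.72. Genes of mitochondrial gene expression and import had 14 of 23 higher and 0 lower (median 0.49), among them Timm50 of the import channel at 1.01 and the chaperone gene Hspd1 at 1.07. The mitochondrial ribosome had 50 of 78 higher and 0 lower (median 0.48). TCA cycle enzymes had 6 of 13 higher and 0 lower (median 0.40), with Fh1 at 1.07, and glycolysis 6 of 14 higher and 0 lower (median 0.44), with Ldha at 0.85. The mitochondrially encoded subunits went the other way, with 0 of 13 higher and 4 lower (median -0.17), including mt-Co1 at -0.58. Cytosolic ribosomal protein genes had 6 of 81 higher and 33 lower. Of 9 regulators of respiratory genes, Gabpa, the DNA-binding part of GABP, was higher at 0.65 (edgeR adjusted p = 0.00431), and Esrra and Ppargc1b were lower at -0.64 and -0.98. The part of depth per cell in these list counts was not tested.

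The summed level of these genes was lower in macrophages than in monocytes on each of the 3 days, and most members were not called. In the same edgeR fit, 18 of 85 members were lower in macrophages (21.2%), where 15.3% of all genes were, and 3 were higher, where 9.13% of all genes were. The members' median log2 was -0.15 against -0.08 over all genes. On all 3 days 45 members were lower, a count that was not made over all genes. Scaling by DESeq2 size factors in place of TMM moved the median of all genes by 0.10 and gave 7 members higher and 13 lower. Of all 11276 genes, 1336 were higher and 1323 lower with that scaling. Among cells of 15000 to 30000 UMIs, 0 of 83 members were higher and 1, Cox7a2l, was lower by edgeR, with 1 and 11 at an unadjusted p under 0.05. Of 9051 genes, 300 were higher and 302 lower. The members' median log2 in these cells was -0.10 against -0.01 over all genes, and the sums were 16428, 17127 and 17445 CPM in macrophages and 19137, 20739 and 20798 in monocytes.

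In complex I, 7 genes were lower and 1 was higher. Ndufb10 was at 116, 105 and 128 CPM in macrophages on days 3, 7 and 14 and at 159, 178 and 201 in monocytes (log2 -0.56 ± 0.10, edgeR adjusted p = 0.000344). Ndufa13, also known as GRIM-19, was at 170, 152 and 199 against 220, 265 and 303 (log2 -0.53 ± 0.10). Ndufs8, which carries iron-sulfur clusters, was lower by a log2 of -0.50 ± 0.12, but not called without day 3 (adjusted p = 0.0761) or day 7 (0.116). The macrophage values of these genes lay below every monocyte value. Ndufv3, a small subunit of the NADH-binding module, was higher in macrophages, at 150, 191 and 191 against 113, 134 and 143 (log2 0.49 ± 0.12, edgeR adjusted p = 0.00435); without day 14 its adjusted p was 0.062, and 0.11 without the library term.

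Complex III had 3 genes lower and 0 higher. Uqcrfs1, the Rieske iron-sulfur protein, was at 127, 111 and 126 CPM in macrophages and 221, 175 and 182 in monocytes, a log2 of -0.60 ± 0.12 (edgeR adjusted p = 0.000951). Uqcrh was at 296, 377 and 354 against 452, 504 and 531, and its call was lost without day 14 (adjusted p = 0.0678). In complex V, Atp5c1, the central stalk, was at 260, 200 and 236 against 324, 333 and 369 (log2 -0.51 ± 0.11), and Atp5h, a stalk subunit, at 343, 355 and 350 against 481, 511 and 546 (log2 -0.50 ± 0.11). Atp5f1 was the other lower gene of that complex, where 0 were higher. Without day 14 the adjusted p was 0.0593 for Atp5c1, 0.0911 for Atp5h and 0.0587 for Atp5f1. The calls of Atp5c1 and Atp5f1 were also lost without day 7 (0.0501 and 0.0816), that of Atp5f1 without day 3 (0.0669), and that of Uqcrc1 without each library in turn (0.0761 to 0.405).

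Complex IV had 3 genes lower and 2 higher. Ndufa4 was at 294, 193 and 254 CPM in macrophages and 372, 352 and 419 in monocytes (log2 -0.58 ± 0.11, edgeR adjusted p = 0.000631). Cox4i1 was lower by a log2 of -0.26 and the sparse testis-type Cox6b2 by -1.89 ± 0.46, with an adjusted p of 0.0965 without day 14. The call of Cox4i1 was lost without each library in turn (adjusted p 0.134 to 0.275). The higher genes were Cox4i2 and Cox7a1, described with the isoforms. Among the assembly factors, Ndufaf7, a methyltransferase needed for complex I assembly, was at 7.99, 3.89 and 6.98 against 17.6, 17.0 and 23.2 (log2 -1.49 ± 0.20, edgeR adjusted p = 1.15e-05). Cox7a2l was at 128, 142 and 161 against 208, 254 and 320 (log2 -0.79 ± 0.12, edgeR adjusted p = 3.12e-05), and it stayed lower among cells of 15000 to 30000 UMIs at -0.55 (adjusted p = 0.0487).

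Glycolysis genes moved the other way in this comparison, with 12 of 14 higher in macrophages and 0 lower (median log2 1.14), led by the glucose transporter Slc2a1 at 1.57, Pgk1 at 1.36 and Gpi1 at 1.32. Their sum was 20613, 23875 and 20878 CPM in macrophages and 11749, 9840 and 9798 in monocytes. TCA cycle enzymes had 0 higher and 3 lower of 13. Complex II and carriers had 0 higher and 2 lower of 9, Cycs at -0.64 and Sdhb at -0.46. The coactivator gene Ppargc1b was lower by a log2 of -1.80 (edgeR adjusted p = 0.00302). Arg1 expression defines the macrophages here, so these values hold for Arg1-high cells.

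Atp5f1, Ndufa4 and Uqcrc1 were higher in cycling CD8 T cells and lower in macrophages (3.53% of 85 members, where 1.18% of all genes tested were). Cox7a2l, Ndufa6 and Uqcrh were lower in both (3.53%, where 5.17% of all genes were). Of the 85 tested members, 24 (28.2%) were called in none of the 4 class comparisons, where 41.7% of all genes were, among them the NRF1-bearing promoter genes Ndufb4 and Cox6a1 printed above.

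NK cells and non-cycling CD8 T cells, the latter also the reference of the first comparison, differed in few of these genes. NK cells were not split by division, whereas these CD8 T cells had 0 UMIs of Mki67 and Top2a. A list of cell cycle genes summed to 2122, 1677 and 3318 CPM in NK cells and 1150, 1242 and 1224 in the CD8 T cells. The part of division in this comparison was not tested. In the edgeR fit 1 member was higher in NK cells (1.18% of 85), where 7.41% of all genes were, and 4 were lower (4.71%), where 8.37% were. The members' median log2 was -0.12 against -0.02. Cox7a2 was at 427, 496 and 489 CPM in NK cells and 351, 356 and 362 in CD8 T cells (log2 0.32 ± 0.10, edgeR adjusted p = 0.0343). Cox7a2l was at 299, 411 and 378 against 349, 522 and 477, values that overlap between the classes but are lower in NK cells on each day (log2 -0.39 ± 0.11, edgeR adjusted p = 0.0239). Cox5a and Atp5g1 were lower by -0.30 and -0.36. Each of these 4 calls was lost when any of the 3 libraries was left out, with adjusted p from 0.0508 to 0.451.

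pDC, with 38 cells in all, compared with cDC2 in a way that depended on the scaling. Their summed level was above that of cDC2 on each day (20872, 21099 and 20693 against 18148, 19557 and 20024 CPM). By level 20 members were higher in pDC on all 3 days and 16 lower, which was not counted over all genes. With TMM, 1 member was higher (7.32% of all genes were) and 30 were lower (35.3% of 85, where 12.5% of all genes were), and of those 30 the pDC value was below the cDC2 value on all 3 days in 13. The median of all genes was itself -0.25 and that of the members -0.36. With library totals only, the median of all genes moved up by 0.36 and 7 members were higher and 6 lower. Of all 11276 genes, 1348 were then higher and 696 lower. The 6 members that were lower under both were Atp5g1, Atp5k, Cox6b1, Cox7b, Ndufa6 and Ndufb8. With only pDC and cDC2 in the fit, the edgeR adjusted p was 0.0524 for Atp5g1, 0.0628 for Atp5k and 0.0598 for Cox7b. Cox6b1, the common form of subunit 6b, was at 312, 282 and 380 CPM in pDC and 444, 478 and 507 in cDC2 (log2 -0.92 ± 0.12, edgeR adjusted p = 9.27e-06). Ndufb8 was at 164, 233 and 190 against 280, 298 and 320, and Atp5k at 70.2, 122 and 97.8 against 140, 153 and 146. The log2 was -1.05 and -1.02. In each of these 3 genes the pDC values lay below all cDC2 values.

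The restricted isoforms of complex IV gave the largest class differences. Cox6a2, the heart and skeletal muscle form of subunit 6a (chr7:128205435-128206387, minus strand, mm10), was at 1388, 845 and 1242 CPM in pDC on days 3, 7 and 14, from 178, 69 and 216 UMIs. The common form Cox6a1 had a mean of 163 CPM in pDC, so the muscle form was the more abundant of the pair there. In cDC2 Cox6a2 had 3, 0 and 1 UMIs. Over the 3 libraries this gave 463 against 4 UMIs, a ratio of levels of 1267 (exact conditional 95% interval 492 to 4670, counting error only), with an edgeR adjusted p of 5.51e-09. A Cox6a2 UMI was found in 13 of 15, 4 of 6 and 16 of 17 pDC, or 86.7%, 66.7% and 94.1%. With each cell thinned to 1500 UMIs, 73.3%, 66.7% and 64.7% of pDC had one. In cDC2, at median totals of 13074, 14713 and 15428 UMIs against 9240, 13735.5 and 9089 in pDC, a Cox6a2 UMI was found in 2 of 85, 0 of 89 and 1 of 88 cells, or 2.35%, 0% and 1.14%. The count of 0 allows up to 3.37% of cells with a UMI, which does not limit the share of cells that express the gene. At day 7 a single pDC held 58.0% of the 69 UMIs.

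Outside pDC, Cox6a2 UMIs stood mainly in barcodes that also passed the pDC gate. Non-cycling CD8 T cells had 103, 19.3 and 64.0 CPM, carried by 19, 4 and 20 cells. When the pDC gate was read before the CD8 gate, an order added after seeing the data, Cox6a2 fell to 0, 0 and 7.73 CPM in non-cycling CD8 T cells and stood at 1190, 954 and 1205 in pDC. The comparisons that use the non-cycling CD8 T class followed. Cox6a2 was lower in NK cells by a log2 of -2.62 (edgeR adjusted p = 0.000273) with the gates in their stated order, but 3.04 higher where each barcode passed exactly 1 gate (adjusted p = 0.0197) and 1.76 higher with the pDC gate first (adjusted p = 0.141). The log2 of -5.42 between cycling and non-cycling cells became -2.24 with the pDC gate first (adjusted p = 0.157). NK cells themselves had 6.16, 7.26 and 13.4 CPM.

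Macrophages carried the restricted forms Cox4i2 and Cox7a1 beside the common ones. Cox4i2, a form of subunit 4 known from lung and from oxygen-dependent expression, was at 26.1, 22.6 and 23.0 CPM in macrophages (49, 29 and 115 UMIs) and at 9.71, 4.15 and 4.64 in monocytes. The macrophage values lay above all monocyte values, with a log2 of 2.03 ± 0.35 (edgeR adjusted p = 0.000204) and an adjusted p of 0.0581 among cells of 15000 to 30000 UMIs. A UMI of Cox4i2 was found in 23.9%, 11.6% and 16.2% of macrophages and in 5.82%, 3.12% and 3.82% of monocytes, while pDC had 0 UMIs. In NK cells, at 5035 to 6078 UMIs per median cell, the shares were 0.398%, 0.419% and 0.935%. Thinned to 1500 UMIs, 3.42%, 3.57% and 2.02% of macrophages and 0.789%, 0.624% and 1.15% of monocytes had a Cox4i2 UMI. The common form Cox4i1 was at 627, 612 and 673 CPM in the macrophages, far above Cox4i2. Cox7a1, the muscle form of subunit 7a, was at 7.45, 7.00 and 6.78 in macrophages (14, 9 and 34 UMIs) against 1.62, 1.86 and 0.96 in monocytes (log2 2.36 ± 0.35, edgeR adjusted p = 3.28e-05).

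Ndufa4l2, the paralogue of Ndufa4 known to respond to low oxygen, was too sparse for the test. It had 14, 1 and 28 UMIs in macrophages on days 3, 7 and 14 and 3 UMIs in all monocytes, a ratio of levels of 42.7 (exact conditional 95% interval 13.7 to 215). At day 14 a single macrophage held 16 of the 28 UMIs (57.1%). Cox6b2, the testis form of subunit 6b, was at 14.2, 13.4 and 16.5 CPM in cDC2 and at 0 UMIs in pDC. Against a floor of 3 counts over the pDC group, the ratio of levels for cDC2 was 1.89. The exact conditional 95% interval for 62 UMIs in cDC2 and 0 in pDC began at 1.49, for counting error only. Monocytes had 4.76, 10.0 and 8.0 and macrophages 2.66, 1.56 and 1.80 CPM of Cox6b2.

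**Figure D4:**
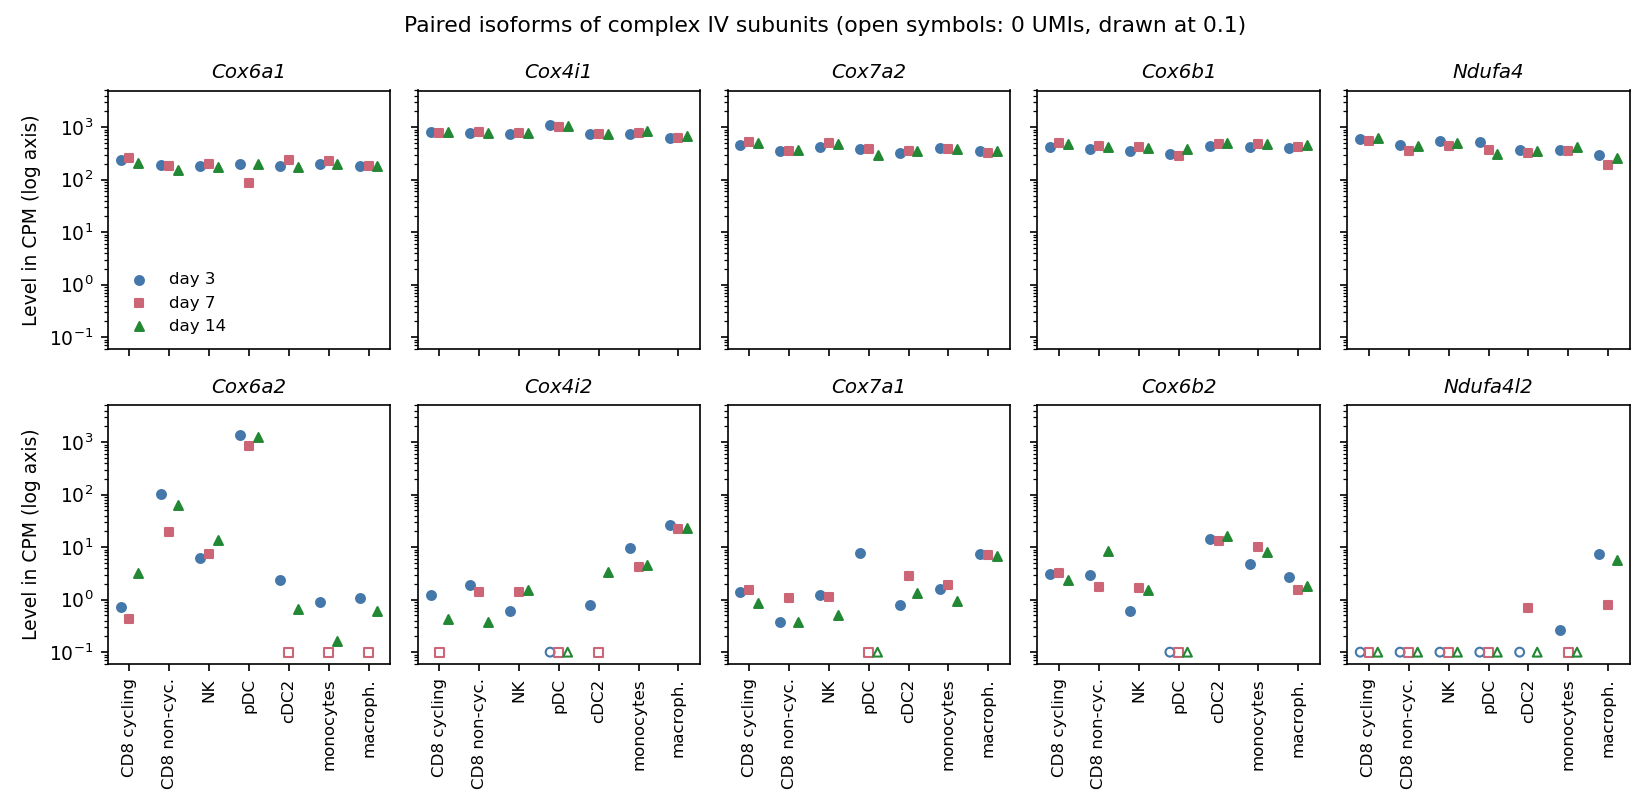
CPM (log axis) of the common form (top row) and the restricted form (bottom row) of 5 complex IV subunit pairs in the 7 classes, with a symbol for each day; open symbols stand for 0 UMIs and are drawn at 0.1. Cox6a2 reaches 845 to 1388 in pDC, Cox4i2 is at 22.6 to 26.1 in macrophages.

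Levels were then compared between days within a class. With 1 library per day there is no replicate check and no test; a member was counted where its level was at least 25% higher or 20% lower, with an exact conditional 95% interval excluding 1, among genes with at least 100 UMIs. From day 3 to day 7, cycling CD8 T cells had 14 of 81 members higher (9.74% of all genes were), and 17 members past the rule in either direction (30.7% of all genes were). Non-cycling CD8 T cells had 11 of 78 higher (12.1%) and 8 lower (26.9%). NK cells had 8 of 77 higher (6.40%) and 1 lower (12.6%), cDC2 9 of 73 higher (8.09%) and 1 lower (7.72%), and monocytes 11 of 83 higher (14.9%) and 2 lower (10.9%). In macrophages 8 of 73 were higher (15.3%) and 26 lower (23.6%).

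Named members show which genes these were. In cycling CD8 T cells Atp5e, the epsilon subunit of the ATP synthase, was at 428 CPM on day 3, 626 on day 7 and 527 on day 14, and Ndufv3 went from 134 to 204 between days 3 and 7. Ndufab1 went from 265 to 203 between the same days. In monocytes Atp5e was at 348 on day 3 and 503 on day 7 (log2 0.53, interval 0.46 to 0.60). In NK cells Ndufv3 was at 115 and 173 and Cox5a at 487 and 365. In non-cycling CD8 T cells Cox7a2l was at 349 on day 3 and 522 on day 7 (log2 0.58, interval 0.46 to 0.70), Cox8a at 669 and 919, and the complex I assembly factor Ndufaf4 at 65.4 and 38.3. Atp5e and Ndufv3 were thus higher on day 7 in more than 1 class.

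Macrophages differed from the other classes in having many complex I members at their lowest on day 7. Complex I summed to 4580, 3803 and 4689 CPM on days 3, 7 and 14. Ndufb8, a subunit of the membrane arm, was at 314 on day 3 and 180 on day 7 (log2 -0.81, interval -1.03 to -0.58), and Ndufs7, which carries the last iron-sulfur cluster before ubiquinone, at 127 and 70.0. From day 7 to day 14, 28 of 76 members were higher (14.7% of all genes were) and 0 were lower, where 30.8% of all genes passed in either direction, with Ndufa8 at 89.5 and 154 and Ndufa5 at 35 and 63. Cox7c and Cox8a were exceptions between days 3 and 7, at 321 and 446 and at 584 and 732. The median macrophage had 11002 UMIs on day 7 against 14063 and 13050.5. Macrophage marker genes in this class summed to 13346, 7844 and 14461 CPM on days 3, 7 and 14. Those of monocytes stood there at 1491, 2093 and 1464, and those of cDC2 at 2367, 2948 and 2077. The part of class composition in the day 7 values was not tested. Among macrophages of 15000 to 30000 UMIs the sums of all members were 16428, 17127 and 17445. There 6 members were lower from day 3 to day 7 and 5 higher from day 7 to day 14, without shares over all genes. Complex I in these cells summed to 4904, 4638 and 5109 CPM, again lowest on day 7.

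Monocytes had a level that was higher at each later day, with the sum at 16914, 18166 and 19247 CPM. Among monocytes of 15000 to 30000 UMIs it was 19137, 20739 and 20798. The sums of cycling CD8 T cells, NK cells and cDC2 were also higher at each later day. In NK cells and cDC2 of 15000 to 30000 UMIs the sum was highest on day 7. In all monocytes, 20 of 83 members were higher from day 3 to day 14 (17.1% of all genes were) and 1 was lower (16.1%). From day 7 to day 14 monocytes had 5 of 79 higher (7.33%) and 1 lower (12.6%), with Ndufaf4 at 16 and 28 and Ndufs7 at 103 and 136. The median share per monocyte was 1.61%, 1.75% and 1.88% of its UMIs. Neutrophil marker genes in this class were at 204, 121 and 740 CPM on these days. Of the 1014, 641 and 524 monocytes, 935, 568 and 452 had fewer than 2 UMIs of the T cell genes Cd3d, Cd3e and Cd3g. The part of neutrophil RNA and of barcodes with more T cell UMIs in the members' summed level was not tested. From day 7 to day 14 NK cells had 2 members higher (9.38%) and 1 lower (12.4%). In the 2 CD8 T classes 1 member was higher and 1 lower from day 7 to day 14, where 7.88% and 9.38% of all genes were in cycling and 10.8% and 12.0% in non-cycling cells.

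The members that were higher on day 7 than on day 3 were mostly those with short transcripts. The members were split at 625 bases, the median over the 89 genes of their shortest basic protein-coding transcript. In cycling CD8 T cells the median log2 from day 3 to day 7 was 0.18 in the shorter and -0.11 in the longer members, with a Spearman rho of -0.57 between log2 and length across 81 genes. In monocytes the medians were 0.23 and -0.02 (rho -0.60, 83 genes), in non-cycling CD8 T cells 0.19 and -0.02 (rho -0.36, 78 genes), in NK cells 0.19 and 0.05 (rho -0.39, 77 genes), and in cDC2 0.18 and 0.04 (rho -0.44, 73 genes). In macrophages both were below 0, at -0.03 and -0.36 (rho -0.49, 73 genes). Over all protein-coding genes counted, the rho in cycling CD8 T cells was -0.03, with medians of 0.01 in shorter and -0.10 in longer genes. These medians were 0.03 and -0.12 in non-cycling CD8 T cells, 0.04 and -0.06 in NK cells and 0.05 and -0.01 in cDC2. Monocytes had 0.08 and 0.03 and macrophages -0.10 and -0.09. The rho over all these genes was -0.07 in non-cycling CD8 T cells, -0.11 in NK cells, 0.03 in cDC2, 0.04 in monocytes and 0.11 in macrophages. From day 7 to day 14 the members' rho was positive, at 0.41 in cycling and 0.13 in non-cycling CD8 T cells. It was then 0.37 in NK cells, 0.17 in cDC2, 0.30 in monocytes and 0.35 in macrophages. Over all protein-coding genes counted, the rho from day 7 to day 14 was negative, at -0.05 in cycling and -0.02 in non-cycling CD8 T cells. For NK cells, cDC2, monocytes and macrophages it was -0.16, -0.09, -0.23 and -0.18. Genes within a class share their 2 libraries, so these correlations describe 1 pair of libraries each. Cytosolic ribosomal protein genes, which are also short, were at 225705 CPM on day 3 and 257771 on day 7 in cycling CD8 T cells and at 126867 and 146601 in monocytes. The part of library composition in the members' values was not tested.

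**Figure D5:**
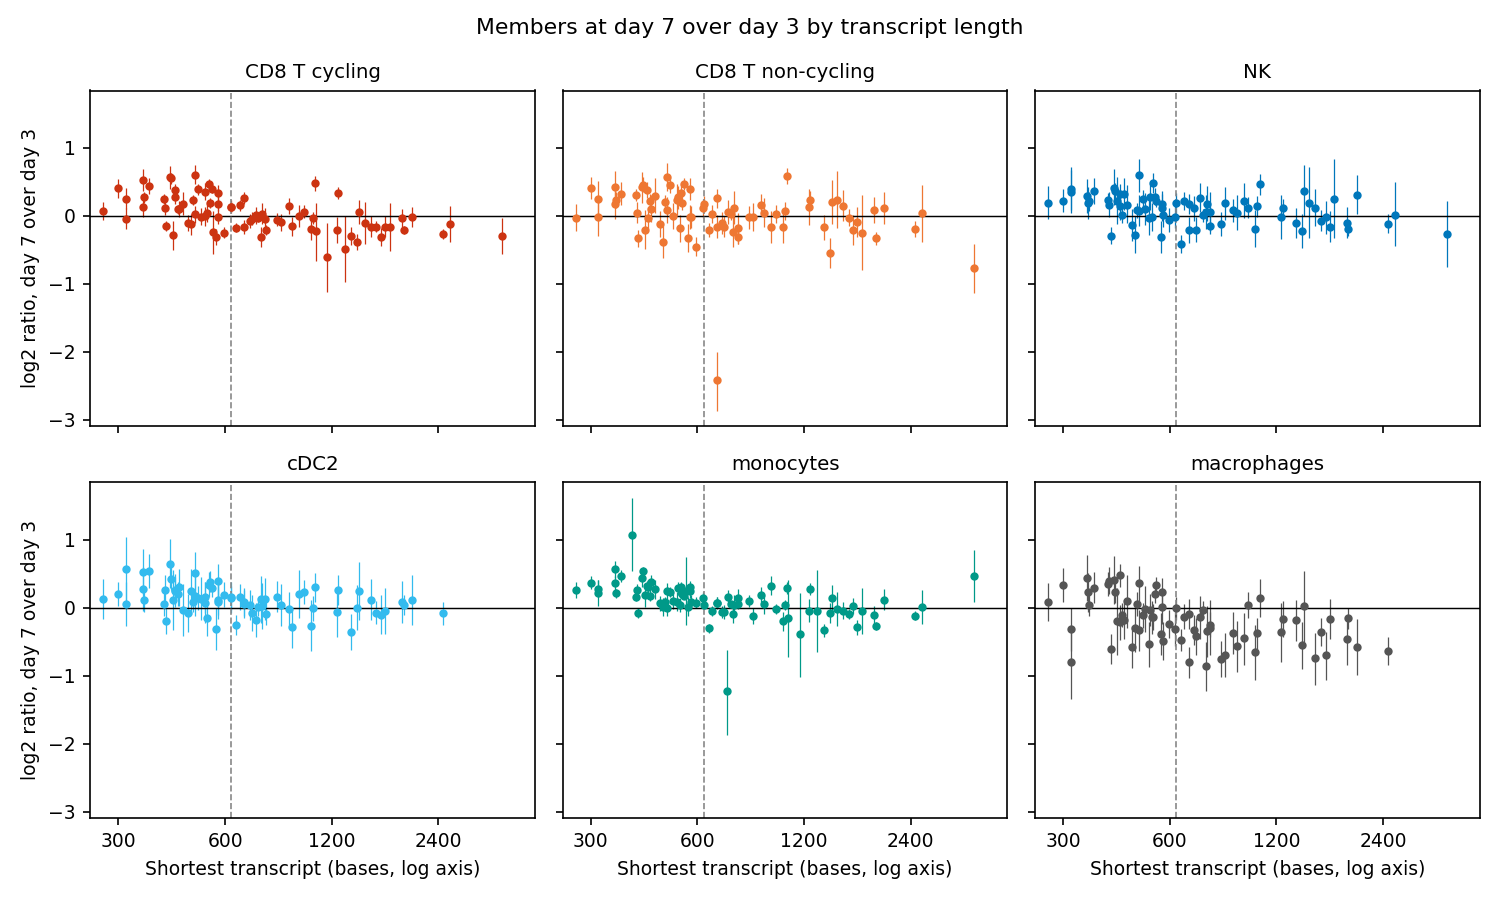
Log2 of the day 7 level over the day 3 level (vertical, exact conditional 95% intervals) against the length of the shortest basic protein-coding transcript in bases (horizontal) for members with at least 100 UMIs, 1 panel per class. The points overlap, and the median left of the split at 625 bases is above the median right of it in each of the 6 panels, with medians of 0.23 and -0.02 in monocytes and -0.03 and -0.36 in macrophages.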

How the data were processed

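CD45+ tumour cells were measured with a droplet 3′ kit in 3 libraries, 1 per day, which the labels map to days 3, 7 and 14. Each deposited value is a raw count of UMIs for 1 gene in 1 barcode. The authors ran Cell Ranger 4.0.0 and mm10 was their genome, according to the submitters' processing notes. Which annotation was used, and whether doublets were removed before deposit, is not given in the sources used here. No doublet caller was run. On days 3, 7 and 14, 450, 555 and 468 barcodes passed more than 1 gate, which does not by itself mark a doublet. Among them, 297, 353 and 263 passed both the CD8 and the monocyte gate. Gates were read in the order CD8, NK, pDC, cDC2; a barcode in an earlier class was not counted in a later one, and barcodes passing both of the last 2 gates, monocyte and macrophage, were left out. CD8 T cells with 1 or 2 cycling UMIs were also left out.

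Counts were summed per class and library (21 sums, 1872, 1731 and 1596 cells). Genes with at least 10 UMIs in at least 3 sums (11276) entered edgeR 4.0.16 (R 4.3.3; TMM, quasi-likelihood, class plus library, the library pairing the classes of a day). The standard error given with a log2 fold change is its absolute value over the square root of edgeR's F statistic. Levels (CPM) are the gene's UMIs over all UMIs of the class, times 1000000. The script was tested on simulated data. Members, lists and gates were chosen with earlier results of these data known. Named genes were, per complex and direction, up to 3 called members with the largest log2 fold change, the isoform pairs, and per class and pair of days the 2 highest and 2 lowest interval bounds. Alternatives were other scalings, DESeq2 1.42.0, other gates and filters, and each library left out. Exact intervals cover counting error only, since UMIs of a cell are not independent samples. Promoters are from RefSeq, GRCm38.p6; gene positions from GENCODE M21.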

Additional observations from a re-analysis of the deposited data

Results flagged for a closer look

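Ndufa5 differed in direction between classes from day 3 to day 7: its log2 was 0.39 in NK cells and 0.56 in cDC2 but -0.81 in macrophages. Ndufaf4 was at a log2 of 0.47 in monocytes and -0.77 in non-cycling CD8 T cells over the same days. Ndufb4 was at 0.32 in monocytes and -0.45 in macrophages. Each of these intervals excluded 0, there was 1 library per day, and the difference was not tested.

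Ndufb1-ps, left out of the members because its symbol marks a pseudogene, had 12047 UMIs over the 7 classes and 3 libraries. Its level on days 3, 7 and 14 was 129, 177 and 144 CPM in cycling CD8 T cells and 209, 254 and 222 in monocytes, as high as many complex I members.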

How the results depend on the processing

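Leaving out each library in turn gave 15 to 32 members higher and 3 to 4 lower in cycling CD8 T cells (32 and 4 with all), 2 to 3 higher and 7 to 12 lower in macrophages (3 and 18), 0 to 0 higher and 1 to 2 lower in NK cells (1 and 4), and 1 to 1 higher and 12 to 25 lower in pDC (1 and 30). Without day 14 the counts were 15 higher in cycling cells, 7 lower in macrophages and 12 lower in pDC; without day 7 they were 9 lower in macrophages, and without day 3 they were 12.

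The fit with no replicate block, class only, gave 27 higher and 3 lower in cycling cells, 2 and 13 in macrophages, 0 and 1 in NK cells and 1 and 23 in pDC. DESeq2 size factors gave 7 higher in macrophages and 17 lower in pDC; the DESeq2 test gave 8 higher in macrophages, 9 lower in NK cells and 2 higher and 17 lower in pDC. Library totals gave 1 lower in NK cells and 7 higher and 6 lower in pDC. Fitting only the 2 classes compared gave 11 lower in macrophages and 4 lower in pDC. Without the filter on low counts 0 were higher in NK cells.

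Cells of 15000 to 30000 UMIs, an alternative added after seeing the data, gave 1 higher and 0 lower in cycling cells, 0 and 1 in macrophages and 0 and 0 in NK cells; it had no day 3 pDC. From day 7 to 14 these cells had 4 higher in non-cycling CD8 T cells, 0 higher and 7 lower in NK cells, 2 and 2 in monocytes and 5 and 1 in macrophages; from day 3 to 7, 17 higher and 0 lower in NK cells, 1 lower in monocytes and 6 lower in macrophages. The pDC gate first, also added, gave 0 higher in NK cells and 0 higher from day 7 to 14 in non-cycling CD8 T cells.

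Counting a barcode in every gate passed gave 5 higher in macrophages, 8 lower in NK cells, 2 lower in NK cells and 4 lower in monocytes from day 3 to 7, and 3 higher and 0 lower in monocytes and 13 higher in macrophages from day 7 to 14. Without cells holding markers of other classes there were 5 higher in macrophages, 7 lower in NK cells, 0 lower in NK cells from day 3 to 7, and from day 7 to 14 1 higher in NK cells and 0 lower in monocytes. Barcodes passing exactly 1 gate gave 2 higher in NK cells, 3 higher from day 7 to 14 in non-cycling CD8 T cells and 5 higher and 5 lower from day 3 to 7 in NK cells; they left no pDC on day 7.

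TMM scaling of the day comparisons gave 21 higher and 4 lower in non-cycling CD8 T cells, 14 higher in NK cells, 4 lower in monocytes and 14 higher and 14 lower in macrophages from day 3 to 7, and 4 higher in NK cells and 3 higher in monocytes from day 7 to 14. Levels scaled to the UMIs outside mitochondrial and ribosomal genes gave 20 higher and 4 lower in non-cycling CD8 T cells, 16 higher in NK cells and 1 lower in monocytes from day 3 to 7, and from day 7 to 14 2 higher in non-cycling CD8 T cells, 4 higher in NK cells and 0 lower in monocytes. Means per cell gave 18 higher from day 3 to 7 and 6 lower from day 7 to 14 in non-cycling CD8 T cells, and 0 higher and 4 lower from day 7 to 14 in NK cells. Without shared barcodes there were 2 higher in non-cycling CD8 T cells and 0 lower in monocytes from day 7 to 14 and 4 lower in NK cells from day 3 to 7. With at least 3000 UMIs there were 2 lower in NK cells from day 3 to 7.

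Cox6a2 in NK over non-cycling CD8 T cells reversed to 3.04 and 1.76, as given above. Where counts moved, the cause was not tested. Shares over all genes are not given beside the counts of this section, which show only how the members' counts moved. Of the counts recomputed, 226 stayed within 1.5 times and 82 did not; of the named genes' values, 707 kept direction and call and 132 lost the call. Without thinning, the number of members detected per cell moved in all 7 classes. Depth limits pDC most, whose sums held 128256, 81663 and 173876 UMIs.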
